A study of Caenorhabditis elegans with 16 samples.

Results

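The comparison described here sets rnp-6(G281D) against wild type, both fed OP50, measured by RNA-seq in whole worms on day 1 of adulthood. It rests on 8 of the 16 samples of the study, 4 of each genotype, chosen by their labels. The mutant strain carries the allele rnp-6(dh1127), which is the point mutation G281D, and the wild type is the laboratory strain N2. Both genotypes were kept at 20 °C, given E. coli OP50 as food and collected 3 days after a timed egg-laying. Time since egg-laying was thus the same, but the exact stage may not have been. The paper reports slower growth and reduced fecundity of the mutant on OP50. The part of stage and of embryo number in the differences was not tested. The other 8 samples are the same genotypes raised on the bacterial strain E. coli BW25113, again 4 of each, and share no sample with the comparison on OP50. The labels do not say whether the 4 samples of a group were separate cultures, so p-values measure the spread between these samples, which may in part be technical. The mutant is a single allele, described in the study as a partial loss of function.

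RNP-6 is the worm counterpart of human PUF60, an RNA-binding protein that helps the spliceosome recognise the end of an intron before the next exon. Splicing removes introns from nearly every protein-coding transcript, and loss of PUF60 function in people causes Verheij syndrome, a developmental disorder for which this strain serves as a model. A whole day 1 adult hermaphrodite holds intestine, hypodermis, muscle, neurons, a large germ line and embryos in the uterus. In such bulk samples, fewer cells of a type and less RNA per cell cannot be told apart.

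The value given for a gene is a normalized count, the authors' estimated read count divided by a size factor of the sample. Totals of normalized counts ran from 36330390 to 37769795 over the 8 samples. The log2FC is the mean of log2(normalized count + 1) in rnp-6(G281D) minus that in wild type, which understates the change of low genes. Of 29351 genes, 15872 averaged 10 or more in the 8 samples and were tested. A gene was called where the adjusted p of limma was under 0.05 and the log2FC over 0.5 in either direction. Samples of the same genotype correlated across genes with r of 0.9897 to 0.9941, and samples of different genotype with r of 0.9777 to 0.9839. The first principal component held 50.64% of the variance and separated the genotypes. The second held 13.01% and divided mutant replicates 1 and 2 (19.51 and 22.33) from 3 and 4 (-18.92 and -20.95). Wild-type replicates 1 to 4 lay in the same order along it, at 3.25, 10.69, -2.85 and -13.07. The non-coding RNA F31C3.14 took 2.03% of the total of mutant replicate 1, against 0.168% to 0.532% in the other samples on OP50. In mutant replicate 1 on BW25113 it took 2.33%. Without mutant replicate 1 on OP50, 1728 genes were called in place of 1823.

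Many genes differed between the genotypes on OP50, in both directions. The test called 1823 genes (11.5% of those tested), of which 943 (5.94%) were higher and 880 (5.54%) lower in rnp-6(G281D). Both genotypes' values did not overlap in 1665 of the called genes, while they did not overlap in 30.6% of all tested genes. The rises reached further than the falls. Their medians were alike, at a log2FC of 0.87 for the genes that rose and of -0.86 for those that fell. However, 94 genes rose and 24 fell by more than 2 on the log2 scale, 36 rose and 3 fell by more than 3, and 13 rose and none fell by more than 4. The median over all tested genes was 0.00.

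**Figure D1:**
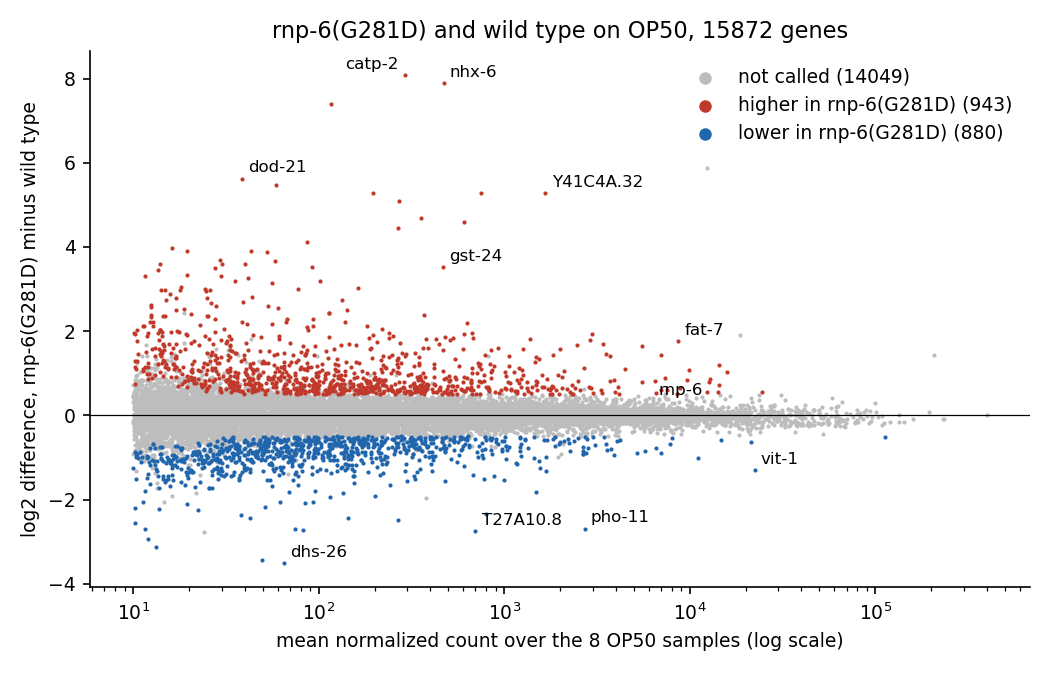
Mean normalized count over the 8 samples on OP50 (horizontal axis, log scale) against the log2FC of rnp-6(G281D) versus wild type (vertical axis) for the 15872 tested genes. The 943 genes called higher are red, the 880 called lower are blue and the rest are grey. The largest rises lie far above the largest falls, and the 10 largest rises include catp-2 and nhx-6.

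Several genes went from close to 0 to a clear signal in the mutant. The largest rise among genes with a mean of at least 100 and no overlap was that of catp-2, which encodes a P-type cation pump. Its values were 0, 4.01, 1.04 and 0.819 in wild type and 706, 680, 579 and 357 in rnp-6(G281D) (log2FC 8.08 ± 0.43 SE, adjusted p = 5.1e-07). C02E7.10, which lies next to catp-2 (chromosome V, 4932393 to 4933045 and 4934706 to 4939085), had 0, 0, 2.08 and 0 in wild type and 258, 280, 258 and 132 in the mutant. Against a floor of 3 normalized counts per library, C02E7.10 was at least 77.4-fold higher in the mutant. Both neighbours were lowest in the same mutant sample, replicate 4. nhx-6, a sodium/proton exchanger, had 0, 8.62, 3.71 and 3.99 in wild type and 989, 1074, 1037 and 659 in rnp-6(G281D) (log2FC 7.90 ± 0.55 SE, adjusted p = 3.1e-06). dod-21, a gene named as downstream of the transcription factor DAF-16, was at 2.02 or less in all 4 wild-type samples and at 74.1, 77.7, 80.1 and 74.7 in the mutant, at least 25.5-fold higher against the same floor.

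The other 7 of the 10 largest rises started from a measurable level. Y41C4A.32 had 92.1, 85.8, 76.4 and 67.0 in wild type and 2611, 2764, 2636 and 5005 in rnp-6(G281D), a 40.5-fold rise (adjusted p = 3.2e-08), with replicate 4 of the mutant well above the rest. Y37H2A.14 rose 39.8-fold, from 32.4 to 40.4 in wild type to 1214 to 1669 in the mutant (adjusted p = 1.6e-09). warf-1, a small GTPase of the ADP-ribosylation factor family, rose 24.6-fold, from 51.9, 45.4, 51.7 and 40.6 to 1054, 1038, 1097 and 1485 (adjusted p = 5.1e-09). None of these 7 genes had overlapping groups. T26H5.9 rose 40.1-fold, F33H12.7 29.2-fold, T19C9.8 26.4-fold and C08E8.4 22.1-fold, with adjusted p between 1.4e-08 and 2.1e-05. Y41C4A.32, T26H5.9, Y37H2A.14, F33H12.7, T19C9.8 and C08E8.4 have no functional name in the files.

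The largest falls were smaller than the largest rises. Among them was pho-11, of the intestinal acid phosphatase family, which fell 6.43-fold, from 4521, 4753, 4359 and 5135 in wild type to 798, 823, 715 and 583 in rnp-6(G281D) (log2FC -2.69 ± 0.10 SE, adjusted p = 3.2e-08). The short non-coding RNA T27A10.8 had 995, 1373, 1242 and 1117 in wild type and 348, 283, 179 and 51.5 in the mutant, where it varied more than in wild type (log2FC -2.75 ± 0.47 SE, adjusted p = 0.00138). ugt-53, a UDP-glucuronosyltransferase, fell 5.61-fold, from 421, 472, 495 and 438 to 102, 86.8, 65.7 and 71.1 (adjusted p = 5.5e-07). asp-14, an aspartyl protease, fell 3.49-fold, from between 2073 and 2484 to between 505 and 728 (adjusted p = 1.1e-06). The rest of the 10 largest falls were Y48G1C.13 (5.49-fold), T22B7.7 (5.21-fold), C15B12.1 (3.88-fold), M02D8.5 (3.82-fold), F54D8.10 (3.54-fold) and W03G11.3 (3.18-fold), with adjusted p between 1.6e-07 and 0.00019. Their genotypes did not overlap. Among genes below a mean of 100, dhs-26, a short-chain dehydrogenase, had 120, 129, 74.3 and 160 in wild type and 9.26, 7.23, 9.06 and 12.4 in the mutant (12.7-fold lower, adjusted p = 4.1e-06).

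**Figure D2:**
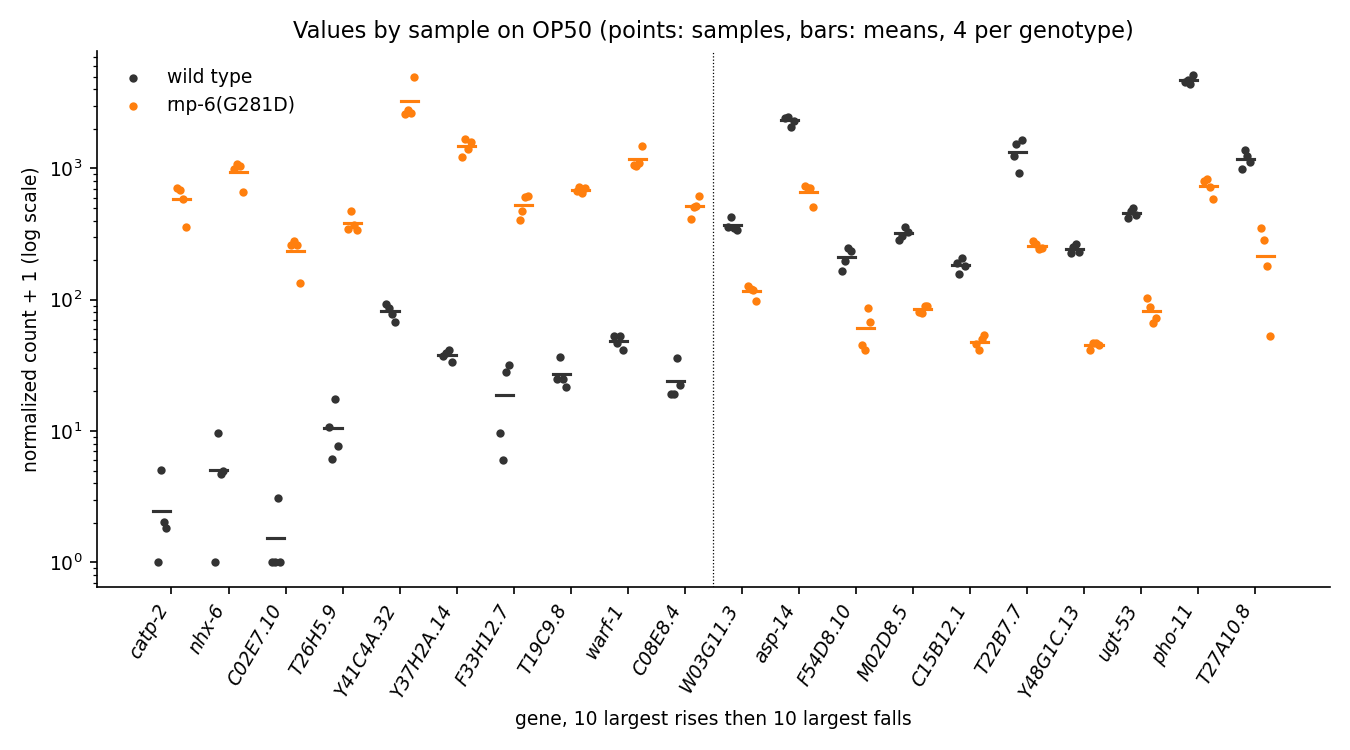
Normalized count + 1 on a log scale for the 10 largest rises (left of the dotted line) and the 10 largest falls (right). Each point is a sample, 4 per genotype, and each bar a mean. In all 20 genes the wild-type (black) and rnp-6(G281D) (orange) points are separate, and catp-2, nhx-6 and C02E7.10 include wild-type samples at 0.

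The mutated gene and the splicing machinery moved little at the level of whole genes. rnp-6 (chromosome I, 3539553 to 3546910) had 5485, 5718, 5484 and 5535 in wild type and 7082, 6798, 7174 and 7189 in rnp-6(G281D), a 1.27-fold difference without overlap whose log2FC of 0.35 was under the threshold for a call (adjusted p = 5.5e-06). A count per gene does not show a point mutation, so this is no check of the labels. Of 80 core spliceosome genes, 16 were higher and 9 lower at an adjusted p under 0.05, with log2FC of all 80 between -0.46 and 0.71. With the fold threshold, 1 of the 80 was called (1.25%, against 11.5% of all genes). That gene was sym-2, an RNA-binding protein of the hnRNP F family (68.5, 63.2, 74.4 and 40.1 in wild type, 82.3, 118, 99.6 and 98.1 in the mutant, adjusted p = 0.0214), and it was not called without replicate 2 of the mutant (adjusted p = 0.0601). None of 8 SR splicing factors and none of 9 genes of nonsense-mediated decay was called by limma, and 4 of each had an unadjusted p under 0.05. tos-1, a transcript used in worms as a reporter of splicing, rose in normalized counts from 5677, 5836, 5220 and 5700 to 8095, 8214, 8610 and 8896 (log2FC 0.59, adjusted p = 2.6e-06). In the authors' FPKM, which divides by transcript length, tos-1 had means of 39.3 and 41.5, and its log2FC of 0.07 was not called (adjusted p = 0.414). numr-1 and numr-2, neighbouring copies of a metal-responsive nuclear protein gene, rose from 27.6, 17.2, 41.3 and 41.4 to 95.5, 100.4, 356 and 231 (log2FC 2.44, adjusted p = 0.0016). They carry the same value in every sample, so their reads could not be told apart, and they were picked out after their values were seen.

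F-box proteins are the part of SCF ubiquitin ligases that recognises the target, and worms have very many of them, in families that differ between strains and species. The A family and the B and C families moved in opposite directions. Of 109 tested F-box A genes, 30 rose and 1 fell, with a median log2FC of 0.25. Of 161 tested F-box B and C genes, which include the related sdz genes, 7 rose and 87 fell, with a median of -0.72. Some of these genes could not be told apart, such as fbxc-2, fbxc-3 and fbxc-4 (log2FC 0.62) and fbxc-8, fbxc-9, fbxc-10 and fbxc-11 (-1.07), and with each set of identical values counted once, 5 rose and 84 fell of 155. Over all tested genes the corresponding shares are 5.94% higher and 5.54% lower and the median is 0.00. The largest rise in the A family was that of fbxa-30, from 0.86, 1.01, 3.10 and 1.66 in wild type to between 30.8 and 44.3 in rnp-6(G281D) (adjusted p = 7e-06). fbxa-166 and fbxa-66 followed at log2FC of 1.99 and 1.98, and fbxa-103 was the 1 member that fell, by 1.51, but its log2FC in FPKM was -0.45 and not called. The leading falls of the B and C families were those of fbxb-25 (19.3 or more in all 4 wild-type samples, 3.13, 2.06, 3.45 and 10.7 in the mutant, adjusted p = 0.00161), fbxb-65 (log2FC -1.69) and fbxc-26 (-1.53). Against the trend of its family, sdz-35 rose from between 2.02 and 9.48 to between 39.0 and 71.4 (log2FC 3.59, adjusted p = 6.8e-05), and fbxc-58 from between 57.6 and 76.4 to between 274 and 341 (2.12, adjusted p = 8.6e-07). Leaving out single samples gave 27 to 29 rises in the A family and 66 to 87 falls in the B and C families.

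The sdz genes were named as zygotic genes that depend on SKN-1, the regulator of endoderm and mesoderm in the embryo. Of 18 early embryonic zygotic genes tested, 6 fell and none rose (33.33% called lower, against 5.54% of all genes, median -0.36), while 5 had a log2FC above 0. The list shares 3 genes with the F-box B and C list, and 5 of its other 15 fell. Their summed level was 7099 to 8222 in the wild-type samples and 5741 to 6705 in the mutant. sdz-28 fell from 485, 472, 565 and 410 to 215, 202, 137 and 208 (adjusted p = 7e-05) and vet-6, a very early zygotic transcript, from 1369, 1393, 1617 and 1129 to 819, 693, 507 and 690 (adjusted p = 0.0003). In both, replicate 3 was the highest in wild type and the lowest in the mutant. The summed level of the F-box B and C genes was 20833 to 23182 in the wild-type samples and 16573 to 18818 in the mutant samples. The part of embryo content in the fall of the F-box B and C genes was not tested.

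Partners of F-box proteins moved in both directions. Of 25 Skp1-related and cullin genes, 4 rose and 5 fell (36.0% called, against 11.5% of all genes). cul-6, a cullin of the response to intracellular pathogens, rose 3.07-fold (176, 190, 175 and 172 to 497, 534, 652 and 510, adjusted p = 7.3e-07), with skr-5 (3.37-fold) and skr-3 (2.12-fold), Skp1-related genes known to act with it. skr-12 (2.06-fold), skr-10 (1.98-fold) and skr-8 (1.83-fold) fell, with adjusted p of 7.1e-05, 0.00022 and 0.00166. MATH and BTB domain genes, whose products serve as adaptors of another cullin, divided evenly, with 8 higher and 8 lower of 70 (22.86% called). The neighbouring genes bath-46 and bath-47 rose from between 4.14 and 9.09 to between 54.2 and 69.0 and from between 22.7 and 36.0 to between 145 and 176 (log2FC 3.18 and 2.29, adjusted p of 6.6e-06 and 4.2e-06). math-40 and math-3 fell 3.51-fold and 2.83-fold. None of 33 proteasome genes was called, and 7 of them had an unadjusted p under 0.05.

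**Figure D3:**
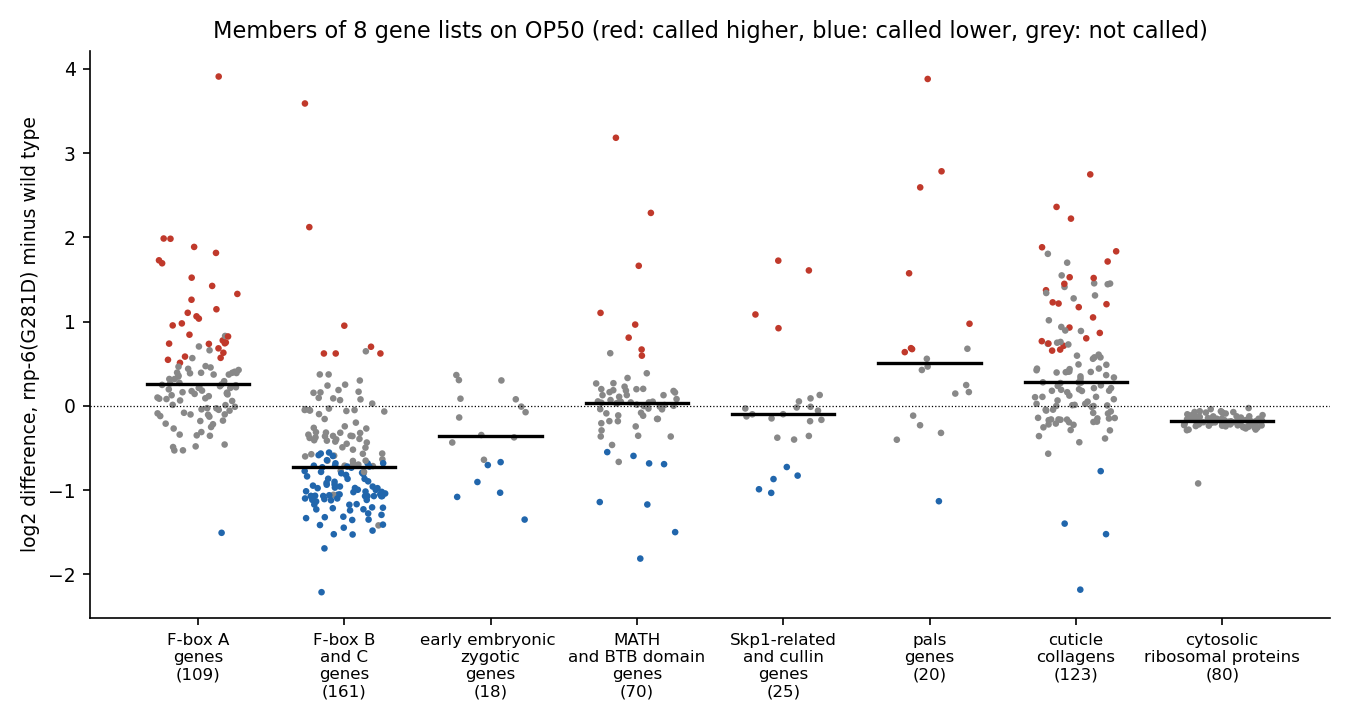
log2FC on OP50 of each tested member of 8 gene lists (number of members in brackets), with the median as a black bar. Red points are called higher, blue points called lower and grey points not called. The F-box A genes lie mostly above 0 (median 0.25) and the F-box B and C genes mostly below (median -0.72), and the 80 cytosolic ribosomal protein genes lie below 0 (78 of them with quantile normalization).

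Genes of the defence against microbes changed in both directions. The pals genes, a family of which many members respond to intracellular pathogens, had a median log2FC of 0.51. Of 20 tested members, 8 were higher and 1 lower (45.0% called, against 11.5% of all genes). pals-6 went from 2.57, 14.1, 6.18 and 4.13 to 99.8, 117, 91.3 and 84.7 (adjusted p = 3.5e-05), and the adjacent pals-37 and pals-39 rose by 2.78 and 2.59. pals-1 fell by 1.13, and 2 members fell without replicate 3 of wild type. Of 109 tested C-type lectins, secreted or membrane proteins that bind sugars, 21 rose and 15 fell (33.03% called, against 11.5% of all genes). clec-125 rose from 23.1, 18.2, 22.7 and 15.7 to 85.5, 85.0, 93.5 and 107 (adjusted p = 9.4e-06) and clec-17 from between 1.72 and 4.04 to between 17.2 and 29.4. clec-74 fell from between 20.2 and 23.1 to between 0 and 4.53, and clec-218 from between 441 and 502 to between 146 and 224 (adjusted p of 0.00096 and 1e-05). Lysozyme, saposin and antimicrobial peptide genes had 7 rises and 8 falls among 61 (24.59% called). spp-18, a saposin-like gene, rose 3.57-fold (331, 314, 271 and 270 to 1102, 1168, 896 and 1067, adjusted p = 3.8e-07) and lys-3, a lysozyme, 4.40-fold, whereas the lysozyme lys-10 and the saposin-like spp-4 fell by 1.41 and 0.81. Infection response genes were the list with the highest share of calls, 7 higher and 7 lower of 16, among them irg-2 (log2FC 1.48, adjusted p = 0.00018) and irg-4 (-1.26, adjusted p = 0.0006). Of 10 dod genes, genes downstream of DAF-16, 5 rose and 1 fell. dod-3 went from between 45.5 and 160 to between 280 and 507, and dod-20 rose by 2.12. The fall in the dod list was lost without replicates 2 or 4 of the mutant or replicate 2 of wild type, and 2 members fell without replicate 3 of wild type.

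Enzymes that modify and clear foreign compounds were again called in both directions. Cytochrome P450 genes had 13 rises and 7 falls among 58 (34.48% called, against 11.5% of all genes). cyp-33C8 rose 3.46-fold (240, 203, 271 and 204 to 757, 763, 874 and 787, adjusted p = 5.4e-07) and cyp-13A5 3.08-fold, while cyp-35A2 fell 2.88-fold (1393, 1444, 1562 and 1540 to 518, 553, 570 and 419, adjusted p = 8.4e-07) and cyp-35A5 3.09-fold. Glutathione S-transferases leaned upward, with 9 higher and 2 lower of 40 (27.5% called, against 11.5% of all genes). gst-24 rose 11.8-fold, from 66.6, 66.7, 68.3 and 89.6 to 660, 724, 1113 and 946 (adjusted p = 2e-07), and gst-38 4.48-fold. gst-43 fell 1.89-fold. UDP-glucuronosyltransferases had 8 rises and 9 falls among 61 (27.87% called), with ugt-19 2.04-fold higher and ugt-51 2.43-fold lower beside ugt-53. Short-chain and aldehyde dehydrogenases leaned downward, with 3 higher and 8 lower of 48 (22.92% called). dhs-19 fell 1.91-fold (961, 976, 1045 and 994 to 577, 477, 474 and 553) and sodh-1, an alcohol dehydrogenase, rose 1.84-fold. Of 47 ABC transporters, 4 rose and 4 fell (17.02% called, against 11.5% of all genes). They were led by the P-glycoprotein genes pgp-1 (2.23-fold higher, adjusted p = 4.5e-05) and pgp-5 (2.49-fold lower, adjusted p = 1.1e-06).

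Single metal, oxidation and heat genes changed, in both directions. mtl-2, a metallothionein, fell 6.83-fold, from 140, 159, 142 and 134 to 15.2, 23.5, 23.7 and 21.9 (adjusted p = 1.5e-06), while cdr-4, a cadmium-responsive gene, rose 2.98-fold, from 593, 707, 614 and 618 to 1694, 2007, 1862 and 1992 (adjusted p = 1.1e-07). In all, 2 of 29 metal genes rose and 3 fell (17.24% called, against 11.5% of all genes). Of 32 antioxidant enzymes, 3 rose (9.38% called, below the 11.5% of all genes), including the catalase ctl-1 (log2FC 0.59). When replicate 2 of the mutant was left out, 1 rose. hsp-17 rose from 555, 660, 584 and 833 to 1308, 1402, 1422 and 1759. It was the 1 member called of 13 cytosolic small heat shock genes (7.69%, below the share of all genes). With the replicate number as a block, 4 members of that list and 2 of 20 HSF-1 chaperones were called lower. No gene of the mitochondrial unfolded protein response (12 tested) or of that of the endoplasmic reticulum (23 tested) was called, although 14 of the latter had an adjusted p under 0.05 and a log2FC between 0 and 0.41. asns-2, an asparagine synthetase, fell 1.81-fold and was the 1 member called of 11 genes of the integrated stress response (9.09%, below the share of all genes). That list had 2 falls without replicate 1 or 2 of the mutant.

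In lipid metabolism, 4 of 7 fatty acid desaturase genes rose and none fell (57.14% called, median log2FC 0.56), while 2 had a log2FC below 0, of -0.06 and -0.19. fat-5, fat-6 and fat-7, which put a double bond into saturated fatty acids, rose 3.85-fold, 2.03-fold and 3.38-fold. fat-7 had 3971, 4222, 3226 and 4383 in wild type and 12261, 12582, 12101 and 16554 in rnp-6(G281D), and fat-5 had 1342, 1405, 1131 and 1036 against 4536, 4286, 4201 and 5890. In both, replicate 4 of the mutant was the highest sample. Of 9 lipid-binding proteins, 3 rose (33.33% called), namely lbp-7, lbp-5 and lbp-6 (1.85-fold, 1.64-fold and 1.48-fold). Of 27 sphingolipid genes, 4 rose (14.81% called, against 11.5% of all genes). The rises were led by cgt-1, a ceramide glucosyltransferase (36.0, 56.5, 56.7 and 47.9 to 190, 172, 197 and 158, adjusted p = 1.4e-05), and sptl-2, a subunit of serine palmitoyltransferase (1.92-fold). None of the 27 sphingolipid genes fell, but 1 was called lower without replicate 2 of the mutant.

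Peroxisomal beta-oxidation, which in worms shortens the side chains of ascaroside pheromones, leaned the other way. Of its 25 genes, 1 was higher and 4 lower (20.0% called, against 11.5% of all genes). The acyl-CoA oxidase genes acox-1.2, acox-3 and acox-1.3 fell 2.67-fold, 2.01-fold and 1.89-fold. acox-1.2 had 1041, 1120, 781 and 1010 in wild type and 443, 363, 350 and 323 in the mutant (adjusted p = 1.2e-05). Another gene of the family, acox-1.5, rose 1.74-fold. acs-7, an acyl-CoA synthetase, fell 2.05-fold and acs-2, a synthetase of mitochondrial fatty acid oxidation, rose 1.90-fold. Of 18 genes of phosphatidylcholine and phosphatidylethanolamine synthesis, 1 rose and 2 fell (16.67% called). eppl-1, a phosphoethanolamine lyase, went from 1258, 1123, 1169 and 1062 to 360, 350, 449 and 468 (adjusted p = 1.7e-06). ckb-2, a choline kinase, had a log2FC of 0.68 (adjusted p = 0.00305) in normalized counts but of -0.03 in FPKM (adjusted p = 0.895). acl-12, an acyltransferase, rose 2.15-fold, dgat-2, of triglyceride synthesis, fell 1.78-fold, and lipl-4, a lysosomal lipase, rose 1.86-fold. The vitellogenins, the yolk proteins made in the intestine, had 2 of 6 members lower and none higher (33.33% called). The other 4 had a log2FC above 0, 3 of them with an adjusted p under 0.05. The summed level overlapped between genotypes (531049 to 557529 in wild type, 491839 to 566171 in the mutant). vit-1 fell 2.45-fold (30475, 30365, 33410 and 32755 to 14050, 12257, 13737 and 11783, adjusted p = 1.3e-07), and vit-5 fell 1.43-fold but was not called without replicate 4 of the mutant, where its log2FC was -0.45.

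Of 30 genes of the methionine and folate cycle, 2 fell and none rose (6.67% called, against 11.5% of all genes). gldc-1, of glycine breakdown, went from 10375, 10406, 8501 and 8964 to 7049, 5981, 5064 and 5911 (adjusted p = 0.00037). nhr-114, a nuclear hormone receptor, had overlapping groups (3865, 3651, 2572 and 2781 against 2677, 2467, 1597 and 2238, adjusted p = 0.0358). Its call was lost without replicate 1 or 2 of wild type or replicate 3 or 4 of the mutant (adjusted p of 0.0627 to 0.103), and in FPKM (0.0517). Each mutant sample was below the same-numbered wild-type sample, and the fit with the replicate number as a block kept the call. On BW25113 its log2FC was -0.55 and not called (adjusted p = 0.0545), and the interaction was not called. Next to this list, cbl-1, a cystathionine beta-lyase gene, fell 2.21-fold (1593, 1608, 1696 and 1588 to 820, 860, 642 and 611, adjusted p = 1.3e-05). No gene of 15 in propionate breakdown and none of 22 in mTOR and AMPK signalling was called, the latter becoming 1 without replicate 2 of the mutant. Of 28 genes followed because the study discusses them, 5 were called, 3 higher and 2 lower (11.5% of all genes were called). The other 23 had a log2FC between -0.24 and 0.41. Some of these differed below the fold threshold without overlap, such as hsp-4 (higher, adjusted p = 8.4e-05) and pmp-5 (lower, adjusted p = 0.00904). The study discusses some of the 28 for splicing or protein, which a count per gene does not measure.

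Among regulators the share of calls varied between lists. Of 189 nuclear hormone receptors, 15 rose and 7 fell (11.64% called, against 11.5% of all genes), and the falls became 4 without replicate 2 of the mutant or of wild type. nhr-112 rose from 54.2, 52.5, 68.1 and 91.8 to 134, 143, 122 and 136 (adjusted p = 0.00137). Among 25 genes of insulin signalling and stress transcription, 4 rose and none fell (5.94% of all genes were higher), led by zip-10 and zip-11, bZIP factors, and pqm-1, a zinc finger factor (log2FC 1.83, 0.96 and 1.21). zip-10 had 62.4, 63.6, 63.2 and 137 in wild type and 237, 173, 411 and 338 in the mutant. Neuropeptide genes had 4 rises and 1 fall among 103 (4.85% called), and insulin-like peptide genes 2 rises among 20 (10.0% called). The neuropeptide rises numbered 2 without replicate 4 of wild type, and the fall was lost without replicate 2 of the mutant. The insulin-like peptide rises numbered 1 without replicate 2, 3 or 4 of the mutant or replicate 1, 3 or 4 of wild type. Among 142 transporters of amino acids, sugars and ions, 10 rose and 10 fell (14.08% called, near the 11.5% of all genes). Beside catp-2 and nhx-6, swt-6, a sugar transporter of the SWEET family, rose 5.28-fold (88.1, 133, 130 and 118 to 534, 770, 614 and 559, adjusted p = 1.4e-06), and slc-36.3, an amino acid transporter, fell 4.62-fold.

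Lysosomal proteases were called in 9 of 21 cases (42.86%, against 11.5% of all genes), 6 higher and 3 lower. asp-8, an aspartyl protease, rose 2.95-fold (427, 471, 395 and 418 to 1300, 1229, 1324 and 1190, adjusted p = 5.2e-08) and cpr-3, a cathepsin B-like protease, 3.04-fold. cpz-1, a cathepsin Z, fell 2.03-fold with tight groups (14201, 14826, 15211 and 15319 to 7392, 6980, 7541 and 7481, adjusted p = 1.4e-08). Among 30 autophagy genes, 2 rose and 1 fell (10.0% called, near the 11.5% of all genes). sqst-1, the receptor that carries ubiquitinated cargo, rose 1.95-fold (1173, 1285, 1309 and 1497 to 2540, 2669, 2536 and 2535) and epg-2, which acts in embryonic autophagy, fell 1.76-fold. Of 11 acid phosphatases, 2 rose and 2 fell (36.36% called). pho-8 rose 2.38-fold and pho-9 2.51-fold beside the fall of pho-11, and 1 of the falls was lost without replicate 1 of wild type or 4 of the mutant. None of 21 V-ATPase genes was called.

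Cuticle collagens are made in pulses by the hypodermis during moults. Of 123 tested, 23 rose and 4 fell (21.95% called, against 11.5% of all genes, median 0.28). The summed level of the collagens was 1430078 to 1598146 in wild type and 1264241 to 1542536 in the mutant, with overlap. Of the rises, 14 had no overlap of the groups, and the rises depended on which samples were included. They numbered 12 without replicate 4 of wild type, 15 without replicate 1 or 3 of wild type and 14 without replicate 4 of the mutant. col-175 shows the spread, with 1.72, 1.01, 1.03 and 2.48 in wild type and 7.19, 2.71, 66.5 and 37.4 in the mutant (adjusted p = 0.0227). Mutant replicates 3 and 4 were far above replicates 1 and 2. dpy-13, a cuticle collagen, was likewise high in replicates 3 and 4, at 17.5, 18.1, 106 and 66.8 against 8.26 to 14.6 in wild type (adjusted p = 0.0319). The calls of col-175 and dpy-13 were lost in 3 and in 6 of the 8 settings that leave out a sample, with adjusted p of at most 0.0618 and 0.0825. These settings were replicates 2 and 3 of wild type and 4 of the mutant for col-175, and every replicate of wild type and 3 and 4 of the mutant for dpy-13. The falls numbered 4 or 5 in each of these settings. Among them, col-110 fell 4.58-fold, from 96.4, 80.8, 78.4 and 81.9 to 16.4, 12.6, 17.4 and 27.2 (adjusted p = 4.6e-05). Moulting genes had 5 rises and 2 falls among 22 (31.82% called), but leaving out samples gave 2 to 7 rises and 0 to 2 falls. The rises numbered 2 without replicate 1 of the mutant or 2 of wild type, and 3 without replicate 1 or 4 of wild type. The falls numbered none without replicate 4 of the mutant or 1 of wild type, and 1 without replicate 3 of the mutant or replicate 2, 3 or 4 of wild type. mlt-8, a moulting gene, overlapped between genotypes, with 116, 189, 65.7 and 92.8 in the mutant and a highest wild-type value just above the lowest of these. The summed level of the moulting genes was 20709 to 21506 in wild type and 20540 to 22269 in the mutant, so that the groups overlapped. Of 13 markers of the hypodermis, which makes the collagens, 2 rose (15.38% called), dpy-13 among them. None was called without replicate 4 of the mutant or replicate 1, 3 or 4 of wild type, and 1 without replicate 1 or 2 of the mutant or 2 of wild type. Their summed level was 81330 to 89544 in wild type and 79490 to 96159 in the mutant, again with overlap. The part of the moulting and hypodermis genes in the collagen result was not tested. Hedgehog-related genes had 7 rises and 7 falls among 53 (26.42% called), with 4 rises without replicate 2 of wild type. Of these, grd-3 fell 1.73-fold (4849, 4841, 4630 and 4820 to 2833, 2660, 2782 and 2787).

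Few germ line genes were called. Of 36 genes of germ line proliferation and meiosis, glh-1, the Vasa helicase of germ granules, was the 1 called, with a log2FC of -0.58 (18658, 17072, 17365 and 17929 to 11654, 11571, 11871 and 12332, adjusted p = 5.8e-07). None of 33 oocyte and eggshell genes was called, and 1 was called lower without replicate 2 of the mutant. Below the fold threshold these lists leaned in opposite directions. Of the proliferation and meiosis genes, 30 had a log2FC below 0, and 9 were lower and 2 higher at an adjusted p under 0.05. Their summed level was 260446 to 263555 in wild type and 241238 to 249351 in the mutant. Of the oocyte and eggshell genes, 27 had a log2FC above 0, and 9 were higher and 1 lower at that adjusted p. Their sums were 656091 to 663221 and 665206 to 698516. Of 108 sperm genes, 4 rose and 3 fell (6.48% called, against 11.5% of all genes). These counts became 1 and 9 without replicate 4 of the mutant and 2 and 3 without replicate 1 of either genotype. The list also holds pes-2.2, named for its patterned expression and not for sperm, which fell 2.33-fold. nspa-5, among the rises, carries the same values as nspa-4 (log2FC 0.80), and nspa-6 the same as nspa-7 (0.81). Of 79 histone genes, 1 rose and 6 fell (8.86% called), with 10 falls without replicate 1 of the mutant and 3 without its replicate 3. his-30 and his-33 carry the same value in every sample (log2FC -0.73), since near-identical histone genes share reads. In total 142 tested genes in 62 sets shared all 8 values with another gene, and 28 of them were called. Of 53 small RNA genes, 2 rose (3.77% called). They were sid-2, which takes up double-stranded RNA in the intestine, and sago-2, an Argonaute (1.76-fold and 1.75-fold, adjusted p of 7.1e-06 and 8.7e-06). In FPKM sago-2 had a log2FC of 0.33 and was not called. Among tissue markers, none of 21 muscle and 24 neuronal genes was called, and 1 of 18 intestinal genes rose (2 without replicate 1 of wild type). A log2FC above 0 was found in 18 of the muscle, 15 of the neuronal and 15 of the intestinal genes, with an adjusted p under 0.05 in 8, 4 and 9 of them.

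The machinery of protein synthesis and respiration was not called. In all, 18 of the 73 lists had no called member, holding 518 genes with a log2FC between -0.92 and 0.41. This is a result of limma with the fold threshold, and 274 of these genes had an unadjusted p under 0.05 (77 higher and 197 lower). No other tool was run for the comparison. The cytosolic ribosomal protein genes moved together by a small amount. All 80 had a log2FC below 0 (78 with quantile normalization), with a median of -0.18, and 71 had an adjusted p under 0.05. rpl-3, the member with the highest mean, had 123286, 115655, 114060 and 121249 in wild type and 107902, 101298, 101041 and 107307 in the mutant. Their median was -0.13 with quantile normalization and -0.17 with equal totals. None of 67 mitochondrial ribosomal protein genes, 38 translation factors, 31 aminoacyl-tRNA synthetases, 53 nuclear genes of oxidative phosphorylation and 10 respiratory genes of the mitochondrial genome was called. Leaving out replicate 3 of the mutant called 1 ribosomal gene lower, and leaving out replicate 4 of the mutant or 3 of wild type called 1 mitochondrial gene lower.

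**Figure D4:**
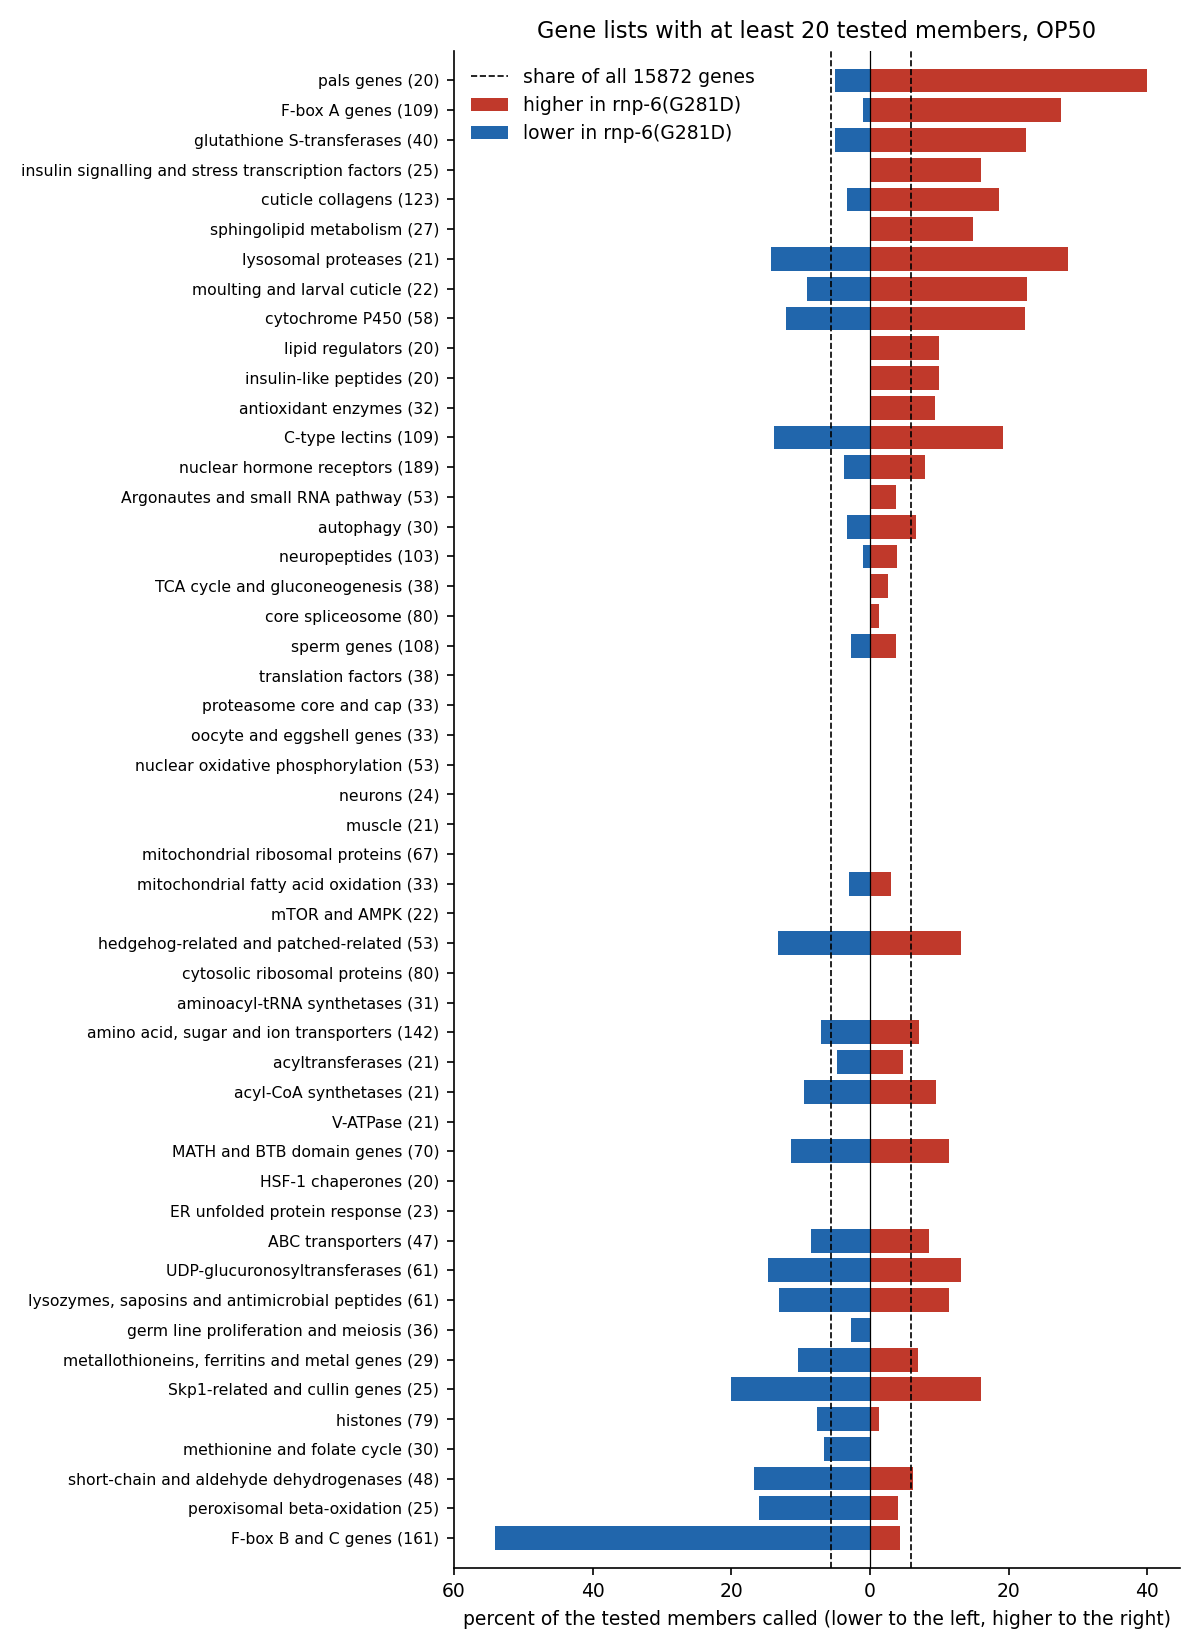
Percent of the tested members called higher (red, to the right) and lower (blue, to the left) in rnp-6(G281D) on OP50 for the gene lists with at least 20 tested members (number in brackets). Dashed lines mark the shares over all 15872 tested genes, 5.94% higher and 5.54% lower. The pals genes lie furthest to the right, followed by lysosomal proteases and F-box A genes, and the F-box B and C genes lie furthest to the left.

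Called genes were not spread evenly over the genome. On chromosome V 16.27% of the tested genes were called and on chromosome I 6.93%, with 12.91% on X, 12.7% on II, 11.01% on IV and 8.17% on III. None of the 14 mitochondrial genes was called. The densest window of 1 Mb was that from 1 to 2 Mb of chromosome II, where 20 genes rose and 52 fell of 182 (39.56% called), followed by 19 to 20 Mb of chromosome V (30.83%). In 26 places at least 4 neighbouring tested genes were called in the same direction, 12 higher and 14 lower, 121 genes in all. F-box or sdz genes lay in 9 of the 14 lower stretches and made up 33 of their 67 genes. The longest was a stretch of 9 genes on chromosome V (19290574 to 19312819) with fbxb-60, fbxb-61, fbxb-62 and fbxb-63, where log2FC ran from -1.42 to -0.92. Among stretches that rose were cyp-13A4 to cyp-13A8 on chromosome II (9795756 to 9807569, 0.57 to 1.59), pals-4, pals-6 and pals-14 on chromosome I (13101346 to 13141898), and a stretch on chromosome V with cgt-1, nhr-213 and gst-38 (15886719 to 15920373, 0.88 to 2.13). Families in such stretches are similar in sequence, and how reads were divided between their members is not known, so single members are less certain than the stretch.

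Calls also followed the level of expression. Of genes with a mean between 10 and 100, 16.78% were called, against 15.06% between 100 and 1000, 3.22% between 1000 and 10000 and 1.93% above. Protein-coding genes with a single exon were called in 17.3% of 341 cases, and those with 16 or more exons in 8.76% of 719. The medians of mean level were 280.9 and 876.9 in these classes, so exon number and level were not separated. Called genes had a median of 5 exons in both directions, and all tested protein-coding genes a median of 6. Of 600 pseudogenes, 65 were called lower and 37 higher, and none of 35 snRNA genes was called.

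The same genotypes on BW25113 gave a comparison in samples not used above. There 884 genes (5.57%) were called, 341 (2.15%) higher and 543 (3.42%) lower. Of the 943 genes that rose on OP50, 239 (25.34%) were also called higher on BW25113 and 756 (80.17%) had the same sign, with a median log2FC of 0.36. Of the 880 that fell on OP50, 348 (39.55%) were also called lower and 852 (96.82%) had the same sign, with a median of -0.53. Over all tested genes, 49.51% had a log2FC above 0 on BW25113. Whether the effect itself differed was tested as an interaction of genotype and diet over all 16 samples, which called 385 genes (2.43%). Among the genes that rose on OP50, 262 (27.78%) rose more on OP50 than on BW25113 and none rose more on BW25113. Among those that fell on OP50, 48 (5.45%) fell more on OP50 and 2 more on BW25113. Both sets were selected by their OP50 values, which the interaction reuses. That selection favours a larger difference on OP50 and smaller medians on BW25113. Over all tested genes, the interaction was positive and called in 328 (2.07%) and negative and called in 57 (0.359%). A larger share of the rises than of the falls was called as differing between the diets.

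**Figure D5:**
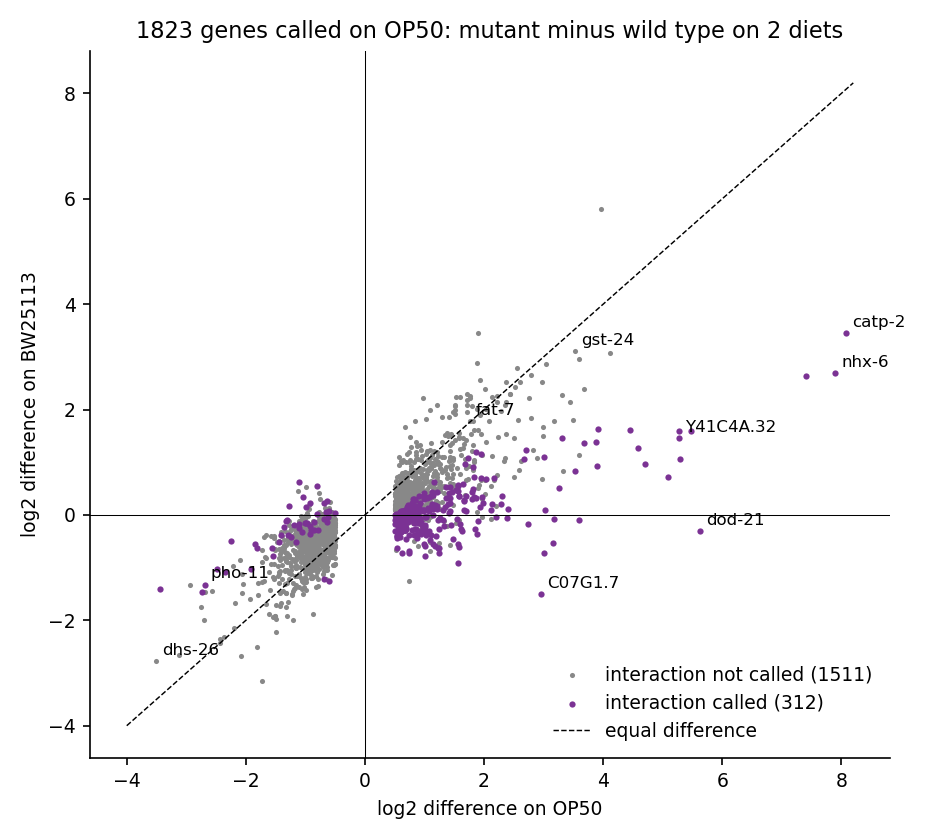
log2FC of rnp-6(G281D) versus wild type on OP50 (horizontal axis) and on BW25113 (vertical axis) for the 1823 genes called on OP50. Purple points are the 312 genes whose interaction was called, and the dashed line marks equal differences. Most purple points lie right of 0 and below the line, while gst-24, fat-7 and dhs-26 lie near it.

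Named genes fell on both sides of this division. catp-2, nhx-6 and C02E7.10 kept a rise on BW25113 (log2FC 3.45, 2.69 and 2.63, adjusted p of 0.0134, 0.0179 and 0.0339) that was smaller than on OP50. dod-21 did not, with a log2FC of -0.31 on BW25113 (adjusted p = 0.828) and an interaction of 5.93 (adjusted p = 0.00078). For gst-24, fat-7, numr-1, pgp-1, dhs-26, eppl-1 and math-40 the effect was present on both diets, with log2FC on BW25113 of 3.11, 1.77, 2.30, 1.21, -2.77, -1.91 and -2.50, and the interaction was not called (adjusted p of 0.111 to 0.973). swt-6, bath-46, sdz-35 and ugt-19 had log2FC between -0.09 and -0.02 on BW25113 and called interactions of 2.46, 3.25, 3.68 and 1.05. Among families, 6 of the 109 F-box A genes were higher and 5 lower on BW25113, and 3 of the 161 F-box B and C genes were higher and 14 lower (medians of 0.06 and -0.30). The interaction was positive and called (2.07% of all genes) in 14 F-box A genes and 2 F-box B and C genes, and negative and called (0.359%) in 4 F-box B and C genes. Only 6 genes were called in opposite directions on the diets, all higher on OP50 and lower on BW25113. They were C07G1.7 (interaction of 4.46 on the log2 scale), best-5 (log2FC of 1.59 and -0.61), cest-8 (1.25 and -0.62), C34H4.1 (1.00 and -0.78), sysm-1 (0.62 and -0.72) and C17H12.8 (0.54 and -0.63), and their interactions had adjusted p of at most 0.00038. These 6 were picked out after their values were seen.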

How the data were processed

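RNA-seq was done on rRNA-depleted stranded libraries of whole worms, sequenced as read pairs. The authors' methods and the submitters' processing notes name kallisto 0.46.1 on the WBcel235 transcriptome of release 89, DESeq2 1.24 and Cufflinks 2.2.1. The deposited signal values are the authors' estimated counts per gene divided by DESeq2 median-of-ratios size factors, called normalized counts. The deposited FPKM values were made by the authors, and which program wrote them is not given in the sources used here. Low values fell on whole-read steps only in part, so read counts and depth were not recovered, and a count test was not run in place of the study's DESeq2 test.

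Genes averaging 10 or more in the 8 OP50 samples were tested with limma 3.58.1 (R 4.3.3, trended variance) on log2(normalized count + 1), with Benjamini-Hochberg adjustment over all 15872 genes. Adjusted p-values in the text come from limma. The same genes were tested on BW25113 and, over all 16 samples, for the interaction of genotype and diet. Tests on simulated data of 15872 genes, drawn with levels and spreads taken from the OP50 samples, were also run. Gene positions and exons are those of Ensembl release 115 of WBcel235.

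Samples were grouped by their labels. Same-numbered samples deviated together from their group means (r of 0.311, 0.208, 0.326 and 0.311 on OP50, 0.465, 0.124, 0.475 and 0.259 on BW25113, over the 10299 genes averaging 100 or more). Some differently numbered pairs were as close. On OP50, r was 0.355 for mutant 1 with wild type 2 and 0.31 for mutant 3 with wild type 4. On BW25113 it was 0.275 for mutant 2 with wild type 1. Pairing by replicate number was therefore used only in an alternative fit with the number as a block.

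Named genes were the 10 largest rises and falls among genes averaging 100 or more without overlap, up to 3 called members per direction in each of 73 lists (the highest mean where none was called), 28 genes the study discusses, genes under 3 in 1 genotype and over 30 in the other, and stretches of 4 or more called neighbours. The members and lists were chosen with earlier results of these data known. Alternatives were other pseudocounts, filters, scalings and fold thresholds, the FPKM table, the block, and leaving out each sample.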

Additional observations from a re-analysis of the deposited data

Results flagged for a closer look

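Among the genes named, 260 groups of 4 samples were examined for a sample far from the others, and 19 had one. Chance alone gives about 1 in 20, or 13 here. In 7 of the 19 the sample was replicate 4 of rnp-6(G281D) on OP50. It was the highest of the mutant samples in warf-1 (1485 normalized counts), fat-7 (16554) and Y41C4A.32 (5005), and the lowest in nhx-6 (659), acs-7 (316), C02E7.10 (132) and asp-14 (505). The other mutant samples were replicate 2 in sqst-1 (2669), replicate 3 in dod-3 (507) and sdz-28 (137), and replicate 1 in fbxa-66 (30.7). In wild type they were replicate 4 in gst-24 (89.6), zip-10 (137) and fbxb-65 (25.6), replicate 3 in grd-3 (4630), acox-1.3 (1037) and C02E7.10 (2.08), replicate 2 in acox-3 (883) and replicate 1 in vit-5 (128953).

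The effect of the mutation differed between the diets in 51 of the genes named, by the interaction term of limma. Many of them were named for their values on OP50, which the interaction reuses, and that selection favours larger differences on OP50. The log2FC on OP50 minus that on BW25113 was over 2 in dod-21 (5.93), nhx-6 (5.21), C02E7.10 (4.77), catp-2 (4.63), F33H12.7 (4.36), T26H5.9 (4.23), Y41C4A.32 (3.82), T19C9.8 (3.73), sdz-35 (3.68), Y37H2A.14 (3.67), warf-1 (3.32), bath-46 (3.25), C08E8.4 (2.84), pals-6 (2.50), swt-6 (2.46), fbxa-30 (2.27), bath-47 (2.07) and fbxc-58 (2.02). It lay between 1 and 2 in irg-2 (1.93), gst-38 (1.92), cpr-3 (1.88), fbxa-66 (1.76), cgt-1 (1.53), clec-125 (1.47), cyp-33C8 (1.36), lipl-4 (1.23), cdr-4 (1.22), spp-18 (1.11), ugt-19 (1.05) and asp-8 (1.01), and under 1 in hsp-17 (0.99), ckb-2 (0.96), sid-2 (0.90), sqst-1 (0.89), sago-2 (0.88), fat-5 (0.79), skr-3 (0.75), ctl-1 (0.75), acox-1.5 (0.65) and lbp-5 (0.55). It was negative in genes that fell more on OP50, namely ugt-53 (-1.47), pho-11 (-1.37), F54D8.10 (-1.30), T22B7.7 (-1.27), mtl-2 (-1.27), asp-14 (-1.19), acox-1.2 (-1.02), clec-218 (-0.93), vit-1 (-0.92), M02D8.5 (-0.90) and acox-1.3 (-0.72).

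The FPKM table holds 199 genes that are not in the table of normalized counts, and 18 of them had a mean of at least 1. In 3 of these the rnp-6(G281D) samples on OP50 were all above the wild-type samples. WBGene00018460 had a mean of 137 FPKM against 42.0 in wild type, WBGene00018461 of 110 against 37.1, and WBGene00021194 of 1.96 against 1.20. The values were not tested.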

How the results depend on the processing

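The count of genes called on OP50 was 1717 to 1884 with other pseudocounts, scalings, no filter, a replicate block (1884) or all 16 samples in 1 fit, and 1491 with FPKM, of which 1354 were among the 1823. It was 888 with a mean of at least 100, which tests fewer genes, 4622 with no fold threshold and 677 with a log2FC over 1. Leaving out 1 sample gave 1618 to 1728. With protein-coding genes alone, an alternative chosen after seeing the data, it was 1688. On BW25113 the corresponding counts were 434, 2283 and 349 against 884, with 710 to 926 without a sample and 1096 with the block. The interaction was called in 739 genes with no fold threshold and in 168 with a log2FC over 1, against 385, with 320 to 403 without a sample and 475 with the block. Of 130 genes followed under 17 settings, all but 11 kept their direction and their call in all settings, and the block changed no call of these genes. ckb-2 had a log2FC of -0.03 in FPKM (adjusted p = 0.895), and the cause was not tested. The calls of col-175, dpy-13, nhr-114, sym-2, vit-5, fbxa-103, sago-2, tos-1, mlt-8 and pho-9 were lost in at least 1 setting. Depth is not given by the values, so it sets no stated limit for low genes.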
